A study of Arabidopsis thaliana with 6 samples.

Results

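Positions that reacted with dimethyl sulfate (DMS) in both libraries of a genotype were compared between the chr2 mutant of Arabidopsis thaliana and the wild-type accession Columbia (Col). DMS methylates unpaired adenosines and cytidines, and such bases are often copied wrongly during reverse transcription. The mismatch rate was the share of base calls other than the reference base. A position was called open in a genotype when its rate was above 1% in both DMS libraries of that genotype. Members were A or C positions with a coverage of at least 100 in the 4 DMS libraries, a rate of at most 1% in both mock libraries, and an open call in at least 1 genotype. Of 2656 A/C positions among 5550 positions in all, 2635 met the coverage and mock limits and 735 were members (27.9%). By the same rule 3 of 2863 G/T positions (0.105%), which this readout should not mark, were open. The members were thus chosen on the measured rates of both genotypes, so their rates and classes are given as a description with no test.

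MicroRNAs are cut from long primary transcripts (pri-miRNAs) that fold into imperfect hairpins, and in plants the Dicer-like enzyme works with SERRATE (SE), a zinc finger protein that binds these transcripts. CHR2, also known as BRAHMA, is the ATPase of the SWI/SNF complex, which moves nucleosomes with energy from ATP. The title of the series names SE as the route by which CHR2 acts on pri-miRNAs, and the comparison addresses which nucleotides were accessible with and without CHR2.

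Leaves of plants aged 3 weeks were treated for 30 min with 1% DMS under vacuum, and the mock received water in place of DMS. Nuclear RNA was then reverse transcribed and amplified with primers for each target. The groups were Col with DMS (2 libraries), chr2 with DMS (2), Col mock (1) and chr2 mock (1). The labels give no allele for chr2 and do not say whether numbered libraries came from separate plants, so the spread between them may be technical. Total base calls were between 384566131 and 451340108 in the DMS libraries, and 453222421 and 342449353 in the Col and chr2 mocks. At the members, coverage was at least 13425 in every DMS library, and the half-width of a 95% Wilson interval of a rate was 0.125 percentage points at the median and 0.544 at most. PCR reads are not independent molecules, so these intervals cover counting error only. Each library held 19 amplicons of 230 to 327 nt, 16 of them pri-miRNAs and 3 of them mRNA parts, namely UBQ4 (a ubiquitin gene, AT5G20620), MYC2 (a transcription factor of jasmonate signalling, AT1G32640) and MPK3 (a mitogen-activated protein kinase, AT3G45640). UBQ4 reads may include other ubiquitin genes.

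The 6 amplicons shown here range from MYC2, with nearly the same open set in both genotypes, to sets that differed more. Pri-miR159a had the largest share of members open in both among the pri-miRNAs (75.0%). The others are 4 of the 5 sets that differed most in number (pri-miR168b, pri-miR159b, pri-miR156b, pri-miR167b, with pri-miR168a not shown). Each is printed as DNA, 5′ to 3′, in the transcribed strand, as the deposited files give the reference bases. Capitals mark the positions open in the named genotype, and the windows hold every member of these amplicons. The capital G of pri-miR167b (G285) was open in both genotypes by the same limits but is no member, since members are A or C. The first base of an amplicon is position 1, and the windows run from 21 to 298 (MYC2), 26 to 262 (pri-miR159a), 24 to 287 (pri-miR168b), 29 to 290 (pri-miR159b), 30 to 243 (pri-miR156b) and 25 to 290 (pri-miR167b).
MYC2, open in Col: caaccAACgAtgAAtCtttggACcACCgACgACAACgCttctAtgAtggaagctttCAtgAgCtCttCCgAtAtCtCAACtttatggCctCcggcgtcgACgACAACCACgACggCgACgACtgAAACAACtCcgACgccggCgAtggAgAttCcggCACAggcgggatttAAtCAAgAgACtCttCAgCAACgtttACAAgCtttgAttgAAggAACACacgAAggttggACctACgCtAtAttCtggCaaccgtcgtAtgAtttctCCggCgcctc
MYC2, open in chr2: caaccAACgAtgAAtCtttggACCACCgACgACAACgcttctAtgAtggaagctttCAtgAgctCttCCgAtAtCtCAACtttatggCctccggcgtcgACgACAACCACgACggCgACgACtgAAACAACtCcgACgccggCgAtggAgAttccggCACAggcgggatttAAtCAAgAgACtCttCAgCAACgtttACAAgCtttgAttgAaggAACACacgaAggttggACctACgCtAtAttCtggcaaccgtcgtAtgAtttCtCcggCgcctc
pri-miR159a, open in Col: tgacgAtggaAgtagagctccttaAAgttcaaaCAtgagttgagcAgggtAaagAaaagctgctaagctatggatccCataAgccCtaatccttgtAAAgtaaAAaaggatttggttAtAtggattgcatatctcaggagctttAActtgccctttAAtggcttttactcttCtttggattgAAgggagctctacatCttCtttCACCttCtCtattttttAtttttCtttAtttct
pri-miR159a, open in chr2: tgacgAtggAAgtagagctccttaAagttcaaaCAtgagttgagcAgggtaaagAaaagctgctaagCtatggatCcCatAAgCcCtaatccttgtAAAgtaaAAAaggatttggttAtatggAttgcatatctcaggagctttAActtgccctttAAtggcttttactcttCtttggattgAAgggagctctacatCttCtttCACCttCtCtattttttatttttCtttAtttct
pri-miR168b, open in Col: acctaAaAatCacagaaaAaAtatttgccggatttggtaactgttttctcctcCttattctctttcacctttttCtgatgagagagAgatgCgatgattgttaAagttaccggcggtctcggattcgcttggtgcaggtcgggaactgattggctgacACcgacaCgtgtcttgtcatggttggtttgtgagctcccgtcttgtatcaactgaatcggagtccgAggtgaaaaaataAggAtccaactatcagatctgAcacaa
pri-miR168b, open in chr2: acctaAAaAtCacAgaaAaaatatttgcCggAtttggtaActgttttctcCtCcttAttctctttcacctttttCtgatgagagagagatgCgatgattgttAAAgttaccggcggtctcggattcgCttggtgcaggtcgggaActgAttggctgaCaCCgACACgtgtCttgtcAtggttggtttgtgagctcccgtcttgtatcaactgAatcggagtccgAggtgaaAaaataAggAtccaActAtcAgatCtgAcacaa
pri-miR159b, open in Col: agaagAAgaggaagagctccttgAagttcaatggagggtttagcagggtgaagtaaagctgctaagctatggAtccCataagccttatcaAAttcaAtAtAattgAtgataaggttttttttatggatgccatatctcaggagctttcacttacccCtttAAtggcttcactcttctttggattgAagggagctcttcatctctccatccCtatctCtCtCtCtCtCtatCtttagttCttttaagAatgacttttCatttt
pri-miR159b, open in chr2: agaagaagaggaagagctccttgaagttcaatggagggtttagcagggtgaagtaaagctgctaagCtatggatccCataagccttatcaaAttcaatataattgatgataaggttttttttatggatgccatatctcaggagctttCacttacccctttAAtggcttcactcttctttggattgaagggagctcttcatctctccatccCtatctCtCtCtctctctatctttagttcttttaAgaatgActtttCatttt
pri-miR156b, open in Col: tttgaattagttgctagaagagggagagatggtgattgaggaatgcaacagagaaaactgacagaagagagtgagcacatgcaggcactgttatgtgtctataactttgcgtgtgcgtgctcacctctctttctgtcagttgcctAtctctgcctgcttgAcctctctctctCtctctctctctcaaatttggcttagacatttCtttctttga
pri-miR156b, open in chr2: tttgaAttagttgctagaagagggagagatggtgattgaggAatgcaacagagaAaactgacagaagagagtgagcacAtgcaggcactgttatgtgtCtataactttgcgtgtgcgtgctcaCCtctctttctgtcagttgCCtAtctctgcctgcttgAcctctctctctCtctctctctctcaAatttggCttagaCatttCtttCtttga
pri-miR167b, open in Col: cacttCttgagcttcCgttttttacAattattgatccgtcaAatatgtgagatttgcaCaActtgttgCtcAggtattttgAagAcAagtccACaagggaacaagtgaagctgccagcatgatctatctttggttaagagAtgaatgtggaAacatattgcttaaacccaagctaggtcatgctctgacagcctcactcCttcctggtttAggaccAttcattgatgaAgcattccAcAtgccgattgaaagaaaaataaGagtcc
pri-miR167b, open in chr2: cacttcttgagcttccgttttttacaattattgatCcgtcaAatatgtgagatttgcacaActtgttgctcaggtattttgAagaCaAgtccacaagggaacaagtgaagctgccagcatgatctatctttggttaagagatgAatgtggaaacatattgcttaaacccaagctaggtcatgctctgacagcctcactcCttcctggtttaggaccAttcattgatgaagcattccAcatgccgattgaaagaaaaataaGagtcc

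The mRNAs and the pri-miRNAs differed in how many members the genotypes shared. In the mRNAs, 328 of 457 A/C positions were members, of which 277 (84.5%) were open in both genotypes, 28 in Col only and 23 in chr2 only. In the pri-miRNAs, 407 of 2178 were members, of which 164 (40.3%) were open in both, 112 in Col only (27.5%) and 131 in chr2 only (32.2%). Each DMS library was also left out in turn, so that 1 library decided for its genotype. The pri-miRNA counts in Col only and in chr2 only were then 229 and 99 without Col replicate 1, and 299 and 66 without Col replicate 2. These counts were 73 and 277 without chr2 replicate 1, and 69 and 295 without chr2 replicate 2. In the mRNAs they were 36 and 20, 42 and 8, 18 and 34, and 14 and 32 in the same order. A genotype judged on 1 library passes more easily, so each of these counts leans to it by construction. They therefore cannot show whether the lean between genotypes depended on single libraries. Across all A/C positions, edgeR's quasi-likelihood test between chr2 and Col with DMS called 0 of 2584 (0%), with 110 at an unadjusted p under 0.05 and a smallest adjusted p of 0.262. All 735 members were in that fit, and 51 of them had an unadjusted p under 0.05. The rule chose the members on the same rates, so nothing is read from the 51. Limma on log2 rates also called 0, with 125 at an unadjusted p under 0.05. Its smallest adjusted p was 0.058, just over the limit of 0.05. DESeq2 called 285 of the 1782 to which it gave an adjusted p, 155 higher and 130 lower in chr2. At G/T positions, which the rule did not use, edgeR called 0 of 2815 (0%), with 117 at an unadjusted p under 0.05. Limma called 0 there, with 87 at an unadjusted p under 0.05 and a smallest adjusted p of 0.233. DESeq2 called 222 of the 1505 G/T positions to which it gave an adjusted p.

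**Figure D1:**
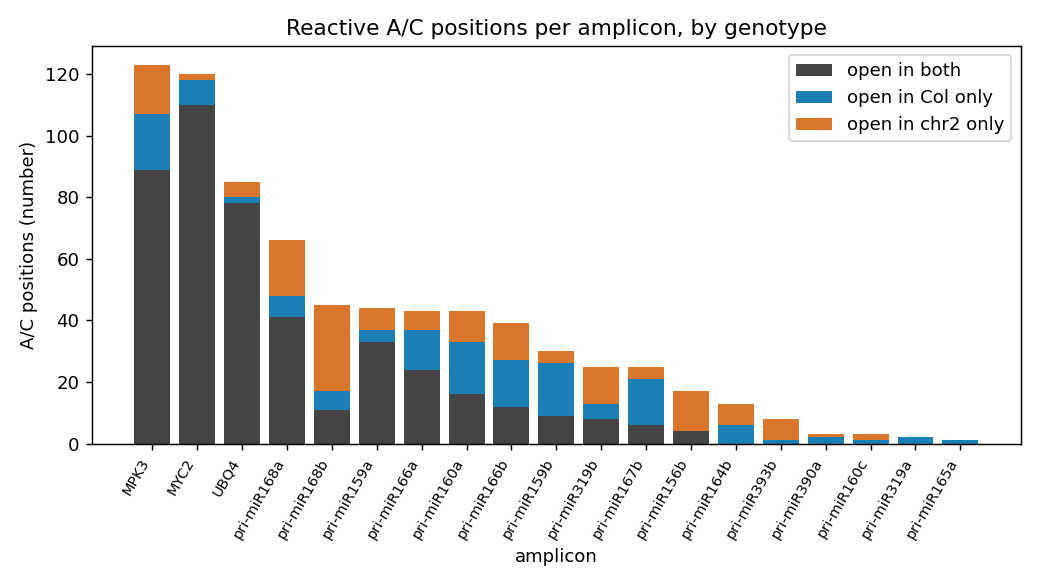
Number of A/C positions open in both genotypes, in Col only and in chr2 only (stacked bars, y axis, number of positions) in each of the 19 amplicons (x axis, mRNAs first). MYC2 had 110 positions open in both and 10 in a single genotype, and pri-miR168b had 11 open in both, 6 in Col only and 28 in chr2 only.

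Among the mRNAs, MYC2 had 120 members in 167 A/C positions, with 110 open in both genotypes, 8 in Col only and 2 in chr2 only. UBQ4 had 85 members in 130, with 78, 2 and 5. MPK3 had 123 members in 160, and more of them were open in a single genotype, with 89 in both, 18 in Col only and 16 in chr2 only. The members of MYC2 thus covered 71.9% of its A/C positions, those of UBQ4 65.4% and those of MPK3 76.9%.

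The highest MYC2 position by its lowest rate was C257, with 6.41% and 6.42% in the Col libraries and 7.70% and 5.30% in those of chr2. Next was A126, with 5.49% and 5.17% in Col and 6.68% and 6.76% in chr2. The chr2 libraries lay above both Col libraries at A126 and on both sides of them at C257. In MPK3, C168 had 5.59% and 5.45% in Col and 7.43% and 6.16% in chr2, and A164 had 4.69% and 5.19% in Col and 5.74% and 8.07% in chr2. In UBQ4, A149 had 7.27% and 5.98% in Col and 6.74% and 6.86% in chr2, and A105 had 5.33% and 5.27% in Col and 5.41% and 5.07% in chr2. Both UBQ4 positions overlapped between the genotypes, and both MPK3 positions were higher in both chr2 libraries. Of all 2635 A/C positions, 18.4% had both chr2 libraries above both Col libraries and 13.5% below. The named positions were picked for their rates, so nothing is read from such overlaps here or at the named pri-miRNA positions below.

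At the 277 mRNA positions open in both genotypes, the median rate was 2.63% and 2.86% in the Col libraries and 3.09% and 2.97% in the chr2 libraries. The ratio of mean rates, chr2 over Col, had a median of 1.13, and it was above 1 at 197 positions. It was 1.16 in UBQ4, 1.16 in MYC2 and 1.05 in MPK3. With size factors from all A/C positions, which shift chr2 over Col by 0.05 on the log2 scale, the median ratio was 1.10. Size factors from the mean rates of these same mRNAs shift it by 0.17 and bring the median ratio to 1.00 by construction. Both chr2 libraries lay above both Col libraries at 90 of these 277 positions and below them at 16, where 18.4% and 13.5% of all 2635 A/C positions did so. The rule used these rates, so nothing is read from these counts.

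In the pri-miRNAs, positions open in both genotypes were found in 10 of 16 amplicons. Most were in pri-miR168a (41), whose miRNA represses AGO1, in pri-miR159a (33), precursor of a repressor of MYB genes, and in pri-miR166a (24), whose miRNA represses HD-ZIP III genes. Pri-miR160a, a precursor in the auxin response factor pathway, had 16 and pri-miR166b 12. Pri-miR168b had 11, pri-miR159b 9, pri-miR319b 8, pri-miR167b 6 and pri-miR156b 4. None was found in pri-miR160c, pri-miR164b, pri-miR165a, pri-miR319a, pri-miR390a or pri-miR393b.

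Pri-miR159a was the pri-miRNA whose members were shared most often, with 33 of 44 (75.0%) open in both genotypes. Its A208 had 12.6% and 12.5% in the Col libraries and 11.5% and 11.6% in those of chr2, and A50 had 7.49% and 11.6% in Col and 8.51% and 8.03% in chr2. The chr2 libraries were lower than both Col libraries at A208, by about 1 percentage point, and lay between them at A50. In pri-miR168a, 41 of 66 members (62.1%) were open in both. There A112 had 6.35% and 11.4% in Col and 10.9% and 8.45% in chr2, and C178 had 8.14% and 5.32% in Col and 6.07% and 10.8% in chr2. The genotypes overlapped at both of these positions.

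In pri-miR166a, C150 had 7.54% and 6.98% in Col and 7.07% and 6.03% in chr2, and A57 had 5.57% and 6.41% in Col and 4.89% and 6.45% in chr2. In pri-miR166b, C223 had 6.82% and 7.30% in Col and 9.97% and 15.2% in chr2, and C299 had 5.30% and 9.13% in Col and 6.90% and 14.9% in chr2. Only C223 of these 4 had non-overlapping genotypes, with chr2 higher. Of all A/C positions, 18.4% had both chr2 libraries above both Col libraries and 13.5% below, so nothing is read from this. In pri-miR160a the replicates lay far apart. C74 had 12.3% and 38.7% in Col and 22.3% and 21.8% in chr2, and A177 had 18.5% and 8.76% in Col and 11.3% and 17.3% in chr2, so the genotypes overlapped at both.

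Over the 164 pri-miRNA positions open in both, the median rate was 3.89% and 4.81% in the Col libraries and 4.67% and 4.33% in the chr2 libraries, with overlap between the genotypes. The ratio of mean rates had a median of 1.12 without scaling and 1.09 with size factors from all A/C positions. It was 0.988 relative to the mRNAs, whose single factor moves every position alike, and 0.997 without chr2 replicate 1. It was above 1 at 96 positions. Both chr2 libraries lay above both Col libraries at 34 of the 164 and below them at 20, beside 18.4% and 13.5% of all A/C positions, and nothing is read from these counts. Per amplicon the median ratio ranged from 0.607 in pri-miR156b, with 4 positions, to 2.03 in pri-miR159b, with 9.

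**Figure D2:**
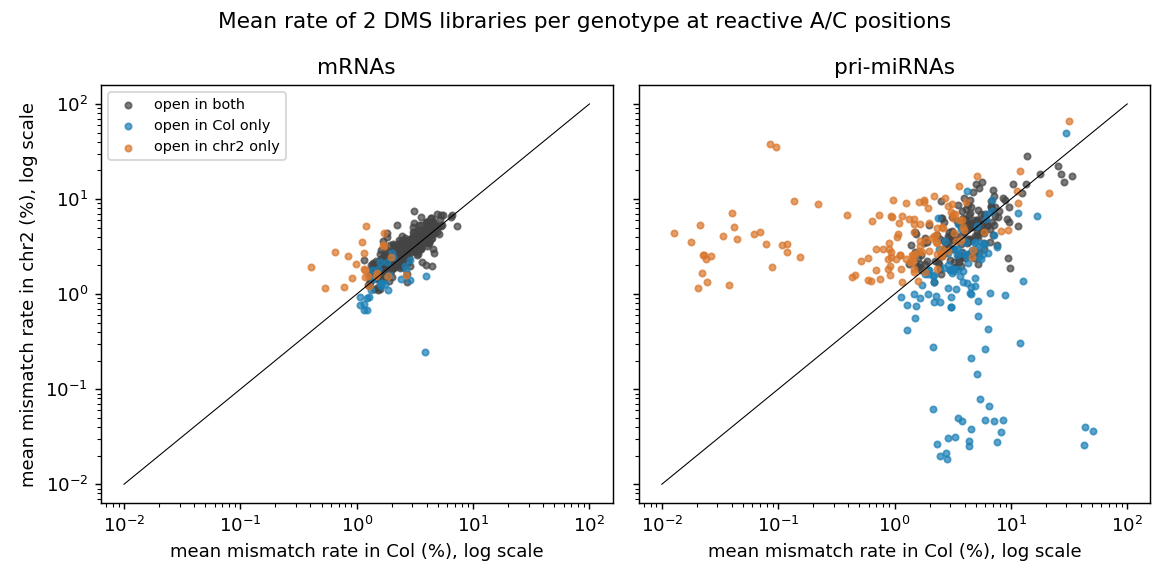
Mean mismatch rate of the 2 DMS libraries in Col (x axis, %, log scale) and in chr2 (y axis, %, log scale) at each member, with mRNAs on the left and pri-miRNAs on the right. Colours show the class and the line marks equal rates. Of the mRNA members 19 of 328 lie more than 2-fold from the line, among them A132 of MPK3, and of the pri-miRNA members 168 of 407, of which 49 have a mean rate under 0.2% in one genotype.

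Most positions open in a single genotype were also above 1% in 1 library of the other. Of the 112 pri-miRNA positions open in Col only, 82 (73.2%) were above 1% in 1 chr2 library, and of the 131 open in chr2 only, 97 (74.0%) were above 1% in 1 Col library. Of these, 39 lacked only chr2 replicate 1, 43 only chr2 replicate 2, 32 only Col replicate 1 and 65 only Col replicate 2. The remaining 30 in Col only and 34 in chr2 only had both libraries of the other genotype at or under 1%. Among these 64, both rates of the other genotype were under 0.2% at 23 and 23 positions. In the mRNAs, 24 of 28 in Col only and 18 of 23 in chr2 only were above 1% in 1 library of the other genotype, and none of the other 9 was under 0.2% in both.

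The single closed library was usually far from the limit in the pri-miRNAs and near it in the mRNAs. In the pri-miRNAs its rate was under 0.2% at 64 of the 82 positions in Col only and at 71 of the 97 in chr2 only, and between 0.5% and 1% at 10 and 16. In the mRNAs it was under 0.2% at 6 of the 24 and at 0 of the 18, and between 0.5% and 1% at 16 and 15. The median mock rate at the pri-miRNA members open in both was 0.044% in each mock.

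Counted over libraries, 1298 of 2178 pri-miRNA A/C positions were above 1% in no library, 332 in 1, 205 in 2, 179 in 3 and 164 in 4. Of the 205 above 1% in exactly 2 libraries, 30 were so in both Col libraries, 34 in both chr2 libraries and 141 in 1 library of each genotype. Those 141 are not members. In the mRNAs, 98 of 457 were above 1% in no library, 20 in 1, 20 in 2, 42 in 3 and 277 in 4. Of the 2863 G/T positions, 2694 were above 1% in none and 157 in 1.

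**Figure D3:**
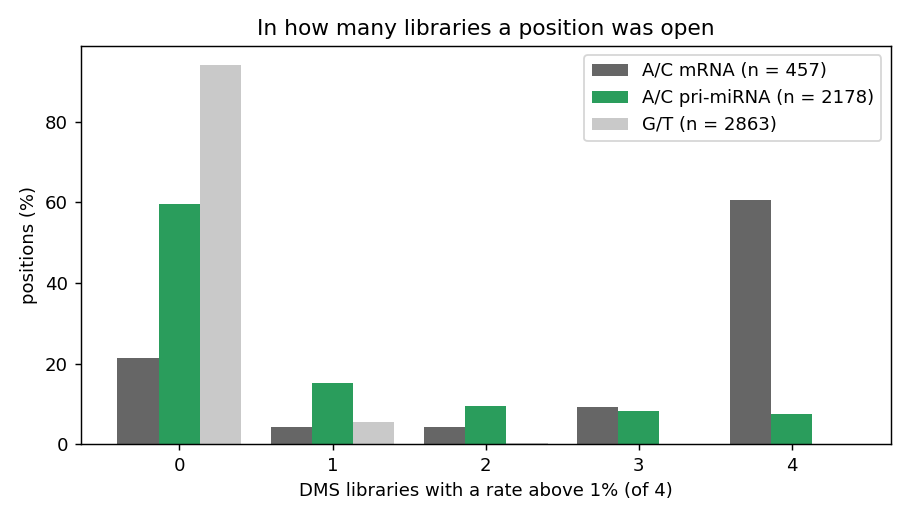
Share of positions (y axis, %) that were above 1% in 0 to 4 of the 4 DMS libraries (x axis), for A/C positions of mRNAs and pri-miRNAs and for G/T positions. The mRNAs peak at 4 libraries (60.6%) and 0 (21.4%), while in the pri-miRNAs 15.2% of positions were above 1% in 1 library and 7.53% in all 4.

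The pri-miRNA positions open in Col only with the largest ratio of the lower Col rate to the higher chr2 rate were A164 of pri-miR319a, A106 of pri-miR166b and 4 positions of pri-miR167b. MiR319 represses TCP transcription factors, and miR167 represses auxin response factors. A164 of pri-miR319a had 64.4% and 20.3% in Col and 0.0250% and 0.0272% in chr2. A106 of pri-miR166b had 9.27% and 7.06% in Col and 0.0325% and 0.0380% in chr2. In pri-miR167b, C93 had 5.62% and 9.58% in Col and 0.0321% and 0.0237% in chr2, and A96 in the same stretch had 6.72% and 10.3% in Col and 0.0490% and 0.0452% in chr2. Both chr2 libraries were thus under 0.05% at all 4 of these. A50 of pri-miR167b had 2.88% and 2.79% in Col and 0.0187% and 0.0182% in chr2, and A235 had 5.90% and 2.90% in Col and 0.0241% and 0.0258% in chr2. The ratios were smaller in the mRNAs. A132 of MPK3 had 2.35% and 5.40% in Col and 0.205% and 0.287% in chr2, C111 of MYC2 had 1.03% and 1.41% in Col and 0.653% and 0.712% in chr2, and C58 of MYC2 had 1.21% and 1.24% in Col and 0.975% and 0.859% in chr2.

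In the other direction, 3 of the 6 pri-miRNA positions with the largest ratio lay in pri-miR393b, whose miRNA represses the auxin receptors. A138 had 0.0167% and 0.0257% in Col and 5.10% and 5.63% in chr2. A58 had 0.0372% and 0.0465% in Col and 4.20% and 5.87% in chr2, and C135 had 0.0858% and 0.0831% in Col and 7.63% and 68.7% in chr2. The chr2 replicates were close at A138 and far apart at C135. C153 of pri-miR156b, whose miRNA represses SPL genes that end the juvenile phase, had 0.0401% and 0.0408% in Col and 9.16% and 5.13% in chr2. A55 of pri-miR168b had 0.00929% and 0.0159% in Col and 6.83% and 1.87% in chr2, and C100 of pri-miR166b had 0.0104% and 0.0253% in Col and 2.34% and 4.69% in chr2. In the mRNAs the 3 largest ratios were all in MPK3, where C162 had 0.637% and 0.659% in Col and 1.73% and 3.76% in chr2. A198 had 0.982% and 0.693% in Col and 2.63% and 2.37% in chr2, and A62 had 0.804% and 0.00921% in Col and 1.94% and 1.93% in chr2. EdgeR called none of the A/C positions at all, so its test does not set these 18 apart. They were picked for their ratios from the same rates.

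Several pri-miRNAs leaned to one genotype, and in these many of the positions open in a single genotype lacked only 1 library of the other. Counts without a library lean by construction to the genotype left with 1, as stated above. Pri-miR168b had 45 members, 28 of them open in chr2 only and 6 in Col only. Col replicate 2 had 25 open positions there, against 55 in Col replicate 1 and 59 and 54 in the chr2 libraries, and 17 of the 28 lacked only Col replicate 2. When Col replicate 1 alone decided for Col, 28 positions were open in both, 27 in Col only and 11 in chr2 only. C194 shows the pattern, with 7.10% and 0.0483% in Col and 6.04% and 6.05% in chr2.

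Pri-miR159b leaned the other way, with 17 of 30 members open in Col only and 4 in chr2 only. Its chr2 libraries had 23 and 33 open positions and its Col libraries 34 and 49. Of the 17, 6 lacked only chr2 replicate 1, 6 only chr2 replicate 2, and 5 lacked both. Without chr2 replicate 1 the counts were 11 in Col only and 18 in chr2 only, and without chr2 replicate 2 they were 11 and 8. Among the 5, A35 had 6.03% and 3.10% in Col and 0.0383% and 0.0381% in chr2, and its neighbour A34 had 4.94% and 2.05% in Col and 0.0490% and 0.0513% in chr2. Of the 17, 5 were cytidines between positions 251 and 267, in the printed window's 3′ part.

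Pri-miR167b had 15 of 25 members open in Col only and 4 in chr2 only. Its chr2 replicate 1 had 16 open positions, against 37 in chr2 replicate 2 and 38 and 46 in Col, and 8 of the 15 lacked only chr2 replicate 1. Without that library 14 positions were open in both, 7 in Col only and 23 in chr2 only. The other 7 of the 15 were at or under 1% in both chr2 libraries. At A253 the Col libraries had 6.69% and 7.56%, and chr2 had 0.0231% in replicate 1 and 8.25% in replicate 2.

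Pri-miR156b had no member open in Col only, 13 in chr2 only and 4 in both. Col replicate 2 had 10 open positions, against 19 in Col replicate 1 and 30 and 20 in chr2, and 7 of the 13 lacked only Col replicate 2. Without Col replicate 2 there were 8 in Col only and 6 in chr2 only. At 3 of the 13, including A108 with 0.0251% and 0.0154% in Col and 1.02% and 1.27% in chr2, both Col libraries were at or under 1%. Its shared positions had high rates, such as C202 with 29.0% and 38.0% in Col and 18.5% and 16.2% in chr2, where chr2 was lower in both libraries.

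**Figure D4:**
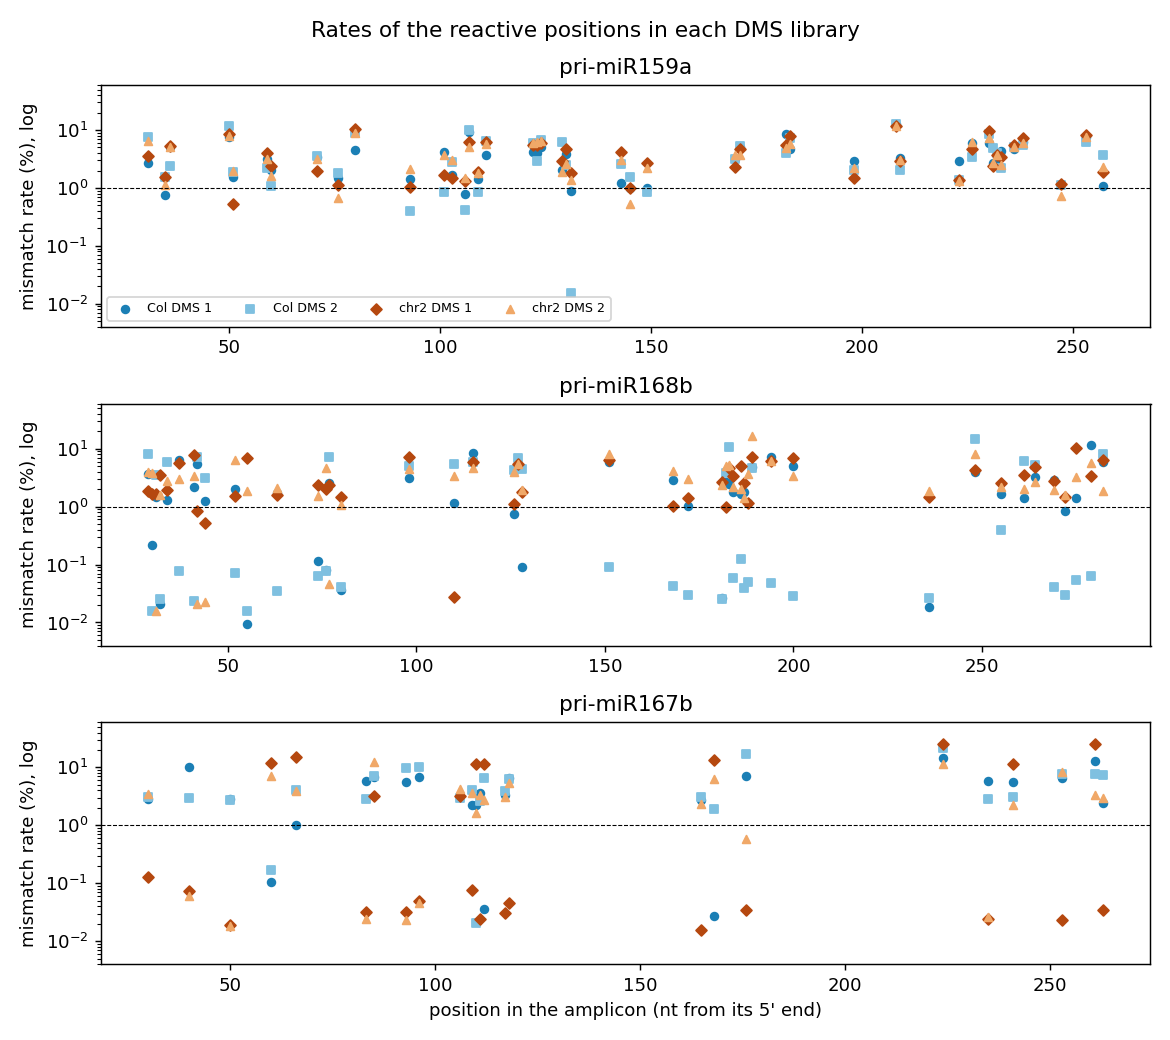
Mismatch rate (y axis, %, log scale) of each member in the 4 DMS libraries against its position in the amplicon (x axis, nt from the 5′ end), for pri-miR159a, pri-miR168b and pri-miR167b. The dashed line marks 1%. In pri-miR159a 1 point lies under 0.1%, in pri-miR168b the points far under the line are mostly Col replicate 2, and in pri-miR167b they include both chr2 libraries, most often chr2 replicate 1.

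The other pri-miRNAs with shared positions also had members open in a single genotype. Pri-miR166b had 15 members open in Col only and 12 in chr2 only, pri-miR160a 17 and 10, pri-miR166a 13 and 6, pri-miR168a 7 and 18, pri-miR159a 4 and 7, and pri-miR319b 5 and 12. Left-out libraries turned the lean in several of them, each time to the genotype left with 1 library. That genotype passes more easily by construction, so nothing is read from these turns. Without chr2 replicate 2, pri-miR160a had 6 in Col only and 21 in chr2 only, and pri-miR166b had 7 and 30. Without chr2 replicate 1, pri-miR166a had 6 and 22. Without Col replicate 2, pri-miR168a had 14 and 8, pri-miR319b 24 and 5, and pri-miR159a 11 and 4. In pri-miR160a, 11 of the 17 in Col only lacked only chr2 replicate 2. In pri-miR168a, 10 of the 18 in chr2 only lacked only Col replicate 2, as did 7 of the 12 in pri-miR319b. In pri-miR168a only 3 members had both libraries of the other genotype at or under 1%, 1 of them in Col only.

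The 6 pri-miRNAs without a shared position had 30 members in all. Pri-miR164b, whose miRNA represses NAC genes of organ boundaries, had 6 open in Col only and 7 in chr2 only, and 6 of these 7 lacked only Col replicate 2. Pri-miR393b had 1 in Col only and 7 in chr2 only, and 5 of the 7 were at or under 1% in both Col libraries. Leaving out a Col library favours Col by construction. Those of pri-miR164b turned to 19 and 1 without Col replicate 2. Without it the pri-miR393b counts turned to 17 in Col only and 5 in chr2 only. Besides those given above, A64 had 0.0231% and 0.0439% in Col and 4.38% and 3.72% in chr2. Pri-miR393b C165 had 0.0474% and 0.146% in Col and 9.30% and 61.3% in chr2, so the chr2 replicates again differed widely. Pri-miR390a, whose miRNA sets off trans-acting siRNA production, had 2 in Col only and 1 in chr2 only. Its A58 had 11.7% and 47.9% in Col and 99.9% and 0.0462% in chr2. Pri-miR160c had 1 in Col only and 2 in chr2 only, pri-miR319a had 2 in Col only, and pri-miR165a had 1 in Col only, A184, with 1.91% and 84.2% in Col and 0.0412% and 0.0386% in chr2.

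Some features that the rule did not use differed between the classes, and others did not. Of the pri-miRNA members open in both genotypes, 70.7% were unpaired in the predicted minimum free energy fold of the amplicon, against 55.4% of those in Col only, 56.5% of those in chr2 only and 35.5% of the 1771 positions that were no members. In the mRNAs the shares were 58.5%, 53.6%, 34.8% and 34.1%. The outer 26 nt at each amplicon end held 402 of the 1771 pri-miRNA non-members and 70 of the 129 in the mRNAs, but 5 members in all. Without these ends, an alternative chosen after seeing the data, 29.4% of pri-miRNA and 22.0% of mRNA non-members were unpaired, against 71.6% and 58.9% of shared members. Adenosines made up 51.2% of the shared pri-miRNA members, 68.8% of those in Col only, 70.2% of those in chr2 only and 57.1% of non-members. In the mRNAs adenosines were 57.0% of shared members and 42.6% of non-members, or 33.9% of non-members without the outer ends. In pri-miRNAs a T followed the member in 36.6% of each class and in 36.4% of non-members. A G followed 15.9% of shared members, 20.5% of those in Col only, 18.3% of those in chr2 only and 17.3% of non-members. In the mRNAs a T followed 24.9% of shared members, 39.3% of the 28 in Col only and 34.8% of the 23 in chr2 only. Among the mRNA non-members it followed 33.3%. In pri-miRNAs an A preceded the member in 31.7% of shared members, 27.7% of those in Col only and 35.9% of those in chr2 only, against 23.4% of non-members. Neighbouring positions share reads and structure, so these shares are descriptions with no test.

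Averaged over members, the mismatches were of much the same kinds in mRNAs and pri-miRNAs, but at single pri-miRNA positions they were more often of 1 kind. Adenosines were read mainly as T, in the mRNAs on average 65.7% and 69.0% of mismatches in the Col libraries and 66.0% and 65.5% in those of chr2. In the pri-miRNAs this was 68.7% and 68.7% in Col and 70.9% and 68.8% in chr2. Cytidines of the mRNAs were read as T in 49.5% and 50.0% in Col and 50.0% and 51.7% in chr2, and those of the pri-miRNAs in 54.9% and 50.3% in Col and 57.4% and 53.0% in chr2. The share of the most frequent wrong base at a position had a median of 60.9% in MYC2, 63.2% in UBQ4 and 71.8% in MPK3. It was 75.8% in pri-miR159a, 76.1% in pri-miR168a and 80.4% in pri-miR166a, and at least 97.9% in the other 13 pri-miRNAs. In the pri-miRNAs, 37.5% of the open values at shared members had a single wrong base in 95% or more of their mismatches, against 63.4% at members in Col only and 63.2% at those in chr2 only. In the mRNAs this was 10.6% at shared members, 22.5% at those in Col only and 25.0% at those in chr2 only.

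The wrong base itself repeated less often in the pri-miRNAs. At shared members of the mRNAs, 191 of 277 (69.0%) had the same most frequent wrong base in all 4 DMS libraries, and at those of the pri-miRNAs 73 of 164 (44.5%). At members in a single genotype the most frequent wrong base was the same in both of its libraries at 71 of 112 pri-miRNA positions in Col only and at 80 of 131 in chr2 only. At A164 of pri-miR319a it was G in Col replicate 1 and T in Col replicate 2, each over 99% of mismatches. At A138 of pri-miR393b it was T in both chr2 libraries, each with 99.9% of mismatches.

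**Figure D5:**
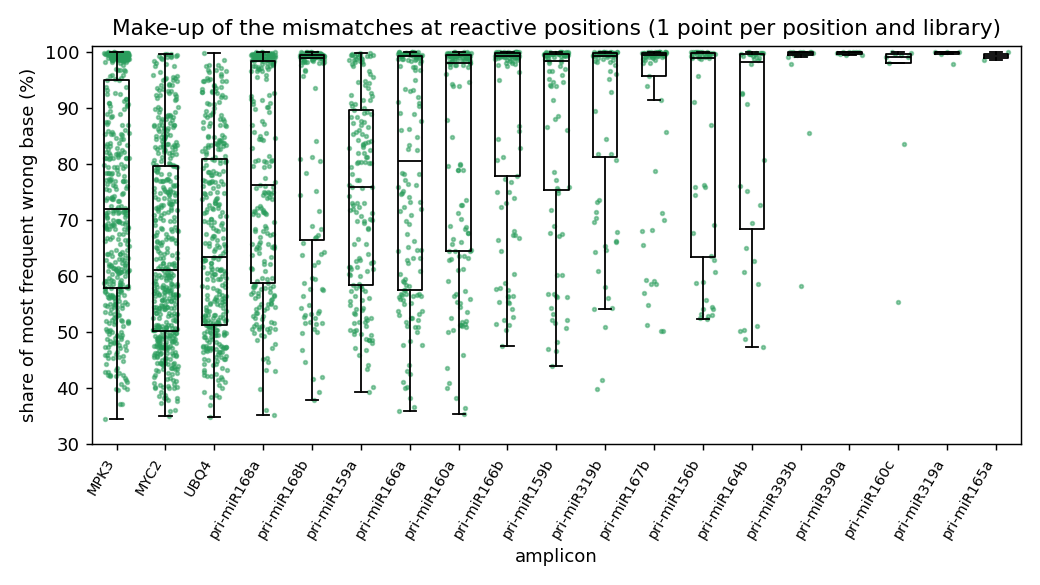
Share of the most frequent wrong base among the mismatches (y axis, %, starting at 30) at each member in each DMS library where it was above 1% (points), per amplicon (x axis). Boxes show the quartiles and the median, and whiskers reach 1.5 times the box. Medians lie between 60.9% and 80.4% in the mRNAs, pri-miR159a, pri-miR168a and pri-miR166a, and at 97.9% or more in the others.

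Related precursors share stretches of sequence, which allow the same letters to be compared in different transcripts. The longest run shared by pri-miR159a (81 to 110) and pri-miR159b (83 to 112) was 30 nt, and that of pri-miR168a (129 to 157) and pri-miR168b (141 to 169) was 29 nt. Both are shown because their members differ, with members of either genotype in capitals.
pri-miR159a, members: aaagctgctaagCtatggatCcCatAAgCc
pri-miR159b, members: aaagctgctaagCtatggAtccCataagcc
pri-miR168a, members: CtcggattcgCttggtgcaggtcgggAAc
pri-miR168b, members: ctcggattcgCttggtgcaggtcgggaAc
In the run of pri-miR159a 6 positions were members, 2 of them shared, and in that of pri-miR159b 3, of which 1 was shared. The first capital C of the run, C93 in pri-miR159a and C95 in pri-miR159b, was open in chr2 only in each. C93 had 1.41% and 0.404% in Col and 1.04% and 2.14% in chr2, so 1 Col library was open, and C95 had 0.0527% and 0.729% in Col and 6.74% and 6.99% in chr2. In the run of pri-miR168a all 4 members were open in both genotypes. C139 there had 4.06% and 6.46% in Col and 6.16% and 4.60% in chr2. The same letter in pri-miR168b, C151, had 5.99% and 0.0893% in Col and 6.49% and 8.02% in chr2, and was open in chr2 only, with Col replicate 2 under 1%. The longest runs of the miR166a and miR166b precursors (36 nt) and of the miR160a and miR160c precursors (23 nt) held no member in either amplicon. The run of pri-miR319a and pri-miR319b (21 nt) held 1, in pri-miR319b.

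The libraries repeated more closely in some amplicons than in others. Over the positions open in both, the correlation of log2 rates across positions was 0.91 between the Col libraries, 0.82 between the chr2 libraries and 0.84 to 0.86 between genotypes in MYC2 (110 positions). It was 0.53, 0.86 and 0.70 to 0.77 in pri-miR159a (33), and 0.38, 0.45 and 0.28 to 0.46 in pri-miR168a (41). In MPK3 (89) it was 0.44, 0.27 and 0.31 to 0.45, lower than in MYC2. Only amplicons with at least 11 such positions were compared. Among these it was lowest between the Col libraries in pri-miR166b (12 positions), with 0.017, 0.28 and -0.18 to 0.59. Next was pri-miR168b (11), with 0.040, 0.33 and -0.22 to 0.60. Pooled over amplicons, it was 0.52, 0.47 and 0.45 to 0.56 in the pri-miRNAs (164), and 0.72, 0.59 and 0.60 to 0.72 in the mRNAs (277). Positions of an amplicon share a library and neighbours, and these values describe positions chosen for rates above 1%.

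Members nearest the limit show how narrow it was. Taking for each member the lower replicate rate of the genotype in which that rate was higher, the lowest values were 1.005% at A151 of MPK3 and 1.01% at A145 of pri-miR159a, both in Col replicate 1. Just outside were A104 of pri-miR166b, with 0.993% in chr2 replicate 2 beside 5.48% in chr2 replicate 1, and C127 of pri-miR166a, with 0.992% in Col replicate 1 beside 1.22% in Col replicate 2. Of the 21 A/C positions that did not enter, 17 exceeded 1% in a mock library and 5 had a coverage under 100 in a DMS library, with 1 counted in both. The 3 open G/T positions were G281 of pri-miR168a (Col only), G285 of pri-miR167b (both) and G176 of pri-miR160a (chr2 only), and G176 had 0.141% and 0.167% in Col and 2.47% and 3.17% in chr2.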

How the data were processed

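Per the file headers, the deposited values are counts of each base called at every amplicon position, beside its reference base. Cutadapt, BWA, Picard and SAMtools 1.5 are listed in the submitters' processing notes, without roles. A genome build is not given in the sources used here, and positions are within amplicons. Names of all 19 amplicons matched RefSeq symbols (assembly TAIR10.1).

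Coverage was the sum of the 4 counts. Folds were predicted with ViennaRNA 2.7.2. Genotypes were tested with edgeR 4.0.16 (quasi-likelihood, R 4.3.3) on counts of mismatches, with the logarithm of coverage times a size factor (median ratio of rates over A/C positions) as offset, over all eligible positions with at least 10 mismatches, and Benjamini-Hochberg adjustment at 0.05. DESeq2 1.42.0 and limma 3.58.1 were alternatives, with limits, scaling, a replicate block and left-out libraries. Intervals used SciPy 1.17.1. The edgeR fit was also run on simulated counts, but how many changed positions it recovered is not reported here. The absence of calls is therefore not shown to be an absence of differences.

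Members and lists were chosen with earlier results of these data known. Positions were named by rule: 2 per amplicon with the highest lowest rate for the 8 amplicons with most shared members, the largest ratios between genotypes per class (6 in pri-miRNAs, 3 in mRNAs), and the 4 nearest the limit. Further positions in the text were picked with their values in view. Mature miRNAs were to be located too, but no sequences of them were used here. Deviations of libraries with the same replicate number were hardly correlated across positions (0.02), and the main test did not pair them. That value does not show whether such libraries were prepared together.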

Additional observations from a re-analysis of the deposited data

Results flagged for a closer look

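Signal above both mocks in all 4 DMS libraries was present at 3 A/C positions that the mock limit of 1% left out of the comparison. UBQ4 A232 had a mean rate of 4.08% ± 0.92 (SD, n = 2) in Col and 4.98% ± 0.35 in chr2 with DMS, beside mock rates of 1.45% (Col) and 1.40% (chr2). UBQ4 C276 had 4.87% ± 0.08 in Col and 6.51% ± 0.12 in chr2, beside 1.05% and 1.20%. Pri-miR166a C207 had 5.68% ± 0.27 in Col and 4.19% ± 2.62 in chr2, beside 1.59% and 1.32%. All 3 would be open in both genotypes without the limit. Several left-out positions of pri-miR165a were high in 1 DMS library only. Its C32 had 99.8% in chr2 replicate 1, 0.0765% in chr2 replicate 2, and 0.0974% and 0.0827% in Col. The mocks there had 6.52% (Col) and 0.104% (chr2).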

How the results depend on the processing

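The number of positions open in both genotypes in the pri-miRNAs was 164, and 105 with a limit of 2%. Without each DMS library in turn, where the remaining library of that genotype decided alone, it was 196 to 229. In the mRNAs it was 277, and 156 with 2%, and 280 to 292 without single libraries. Positions open in Col only in the pri-miRNAs numbered 112, and 69 to 299 without single libraries, and those in chr2 only 131, and 66 to 295. In the mRNAs the counts in Col only were 28, and 14 to 42, and those in chr2 only 23, and 8 to 34, with 45 at a limit of 2% and 13 at 0.5%. The counts without a library vary partly by construction, since 1 library passes more easily than 2. The median ratio of chr2 over Col at shared positions of the pri-miRNAs was 1.12, and 1.09 with size factors from all A/C positions and 0.988 with those from the mRNAs. Without single libraries it was 0.997 to 1.20. In the mRNAs it was 1.13, and 1.10 with size factors from all A/C positions, 1.00 by construction with those from the mRNAs, and 1.11 to 1.18 without single libraries. EdgeR called 0 A/C and 0 G/T positions in every alternative run with it, the replicate block included (0 for both), as did limma, whereas DESeq2 called 285 A/C and 222 G/T positions. A higher coverage minimum, a mock limit of 5%, mock subtraction and leaving out the primer ends kept all 6 counts within 1.5 times. Where a fit left a genotype with 1 library, that library was assumed to vary like the others. What limited the number of calls was not tested.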
